A study of Lolium multiflorum with 4 samples.

Results

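In 82 of the 70886 expressed contigs of Italian ryegrass (Lolium multiflorum), the transcript level moved in opposite directions in the LmHC and LmLC plants after 24 h in cadmium. In 54 of them the level in LmHC was higher at 24 h than at 0 h, by 2-fold or more, while that in LmLC was lower by 2-fold or more. This is 0.0762% of the expressed contigs. In the other 28, or 0.0395%, it was lower in LmHC and higher in LmLC. The contigs were chosen by these measured changes themselves: a mean of at least 1 FPKM over the 4 libraries, and a log2 ratio of 24 h over 0 h, computed on FPKM + 1, of 1 or more in one line and -1 or less in the other. FPKM is the number of sequenced fragments divided by contig length and by the library's total of mapped fragments. The whole table holds 111761 contigs. Because all 4 libraries entered the rule, the changes and the line differences below describe the chosen contigs and test nothing.

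The 4 groups, with 1 library each, were LmHC seedlings after 24 h in 300 µM CdCl2, LmHC seedlings at 0 h, LmLC seedlings after 24 h in 300 µM CdCl2, and LmLC seedlings at 0 h. All were 2 weeks old at treatment and had been moved from MS agar to Hoagland solution at 7 days. LmHC is labelled high cadmium and LmLC low cadmium. They were read as a pair of plant lines from the wording of the growth protocol, although high and low cadmium stand under a treatment tag in the labels. The labels say only "plant tissue", give no number of plants per library, and do not say whether the names refer to uptake or tolerance. An untreated 24 h library was not analysed here, so cadmium and the passage of time cannot be told apart, and line, plants and library preparation cannot be told apart either. With 1 library per group there is no replicate spread and no test.

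Cadmium has no known use in flowering plants and enters roots largely through transporters for iron, zinc, manganese and calcium. Plants bind it with thiol compounds made from glutathione, among them the phytochelatins, and store it in vacuoles. Plant lines can differ in uptake, in movement from root to shoot and in storage. A contig is a stretch of transcript assembled from the reads without a genome. Contigs of similar sequence carry 1 cluster name (CL) and can come from alleles, from splice forms or from copies of a gene, and contigs called Unigene stand outside clusters. The deposited table gives contigs without gene names, sequences or lengths, so no role can be given to any of the 82, and the tissue could not be checked against marker genes.

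The libraries were alike in their totals, which lay between 782476 and 795368 FPKM. Relative depth, read from the spacing of low values, was 0.956 for LmHC at 24 h and 0.92 for LmLC at 24 h, each relative to 0 h of the same line. It was 1.03 for LmHC relative to LmLC at 24 h and 0.986 at 0 h. The number of fragments behind a value is not known, so counting intervals are not given.

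Opposite movement was rare, while a 2-fold change within each line taken alone was common. Over all expressed contigs, 28.2% were higher by 2-fold or more at 24 h in LmHC and 27.6% lower, and the shares in LmLC were 29.3% higher and 24.8% lower. The median log2 change of the 54 contigs was 1.55 in LmHC and -1.41 in LmLC, and that of the 28 contigs was -1.2 in LmHC and 1.36 in LmLC. Over all expressed contigs the medians were -0.20 in LmHC and -0.14 in LmLC. The size of the difference between the lines' log2 changes had a median of 2.88 in the 82 contigs, against 0.40 in all expressed contigs. The smaller of a contig's 2 changes was mostly near the limit. It passed 2.8-fold in 13 of the 82 contigs and 4-fold in 2, both of the direction higher in LmHC. More contigs passed 4-fold in 1 line alone.

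**Figure D1:**
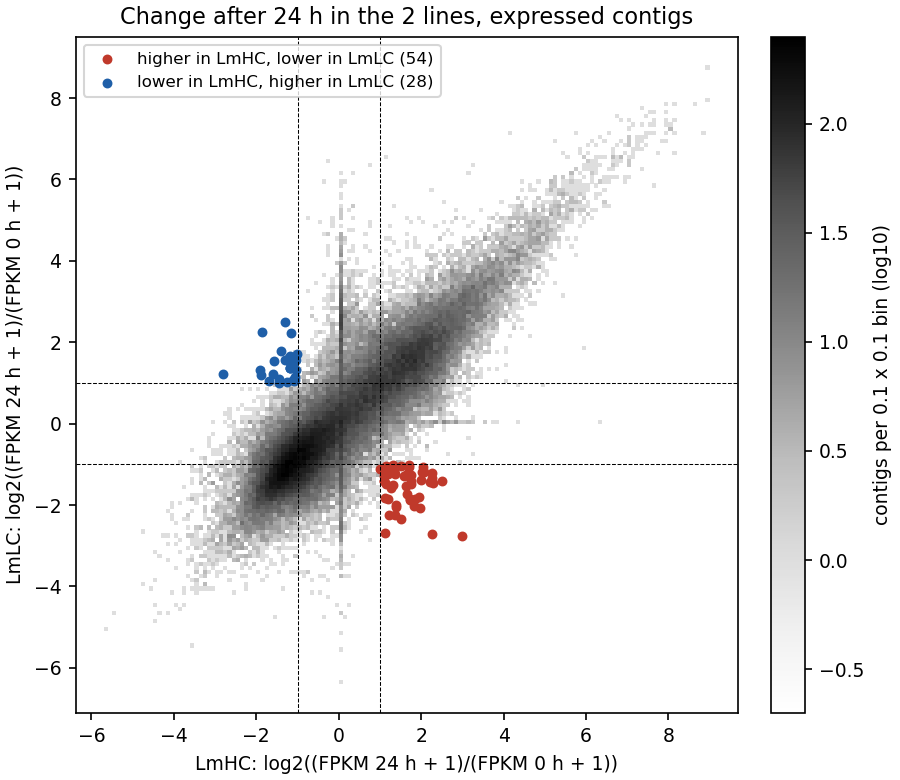
Log2 change after 24 h, on FPKM + 1, in LmHC (horizontal) and LmLC (vertical) for all expressed contigs, in grey bins of 0.1 by 0.1 shaded by the log10 number of contigs, with dashed lines at 2-fold. The 54 red and 28 blue points are the contigs past 2-fold in opposite directions, and they lie in the corners off the grey diagonal.

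The excess of 54 over 28 depended on the settings. With a pseudocount of 0.1 the numbers were 263 higher in LmHC and lower in LmLC and 287 the other way, and with a limit of 1.5-fold in each line they were 268 and 285. Scaling by the median of ratios gave 63 and 21, and only 56 of the 82 contigs were among these 84. That scaling moved the median log2 change of expressed contigs to 0.08 in LmHC and 0.15 in LmLC.

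The levels of the chosen contigs were mostly a few FPKM. Their mean over the 4 libraries had a median of 2.16 FPKM and a range of 1.01 to 24.5 FPKM, against a median of 3.40 FPKM for all expressed contigs. In 41 of the 82 (50.0%) no library reached 5 FPKM, against 42.2% of expressed contigs. In 63 (76.8%) at least 1 library lay under 1 FPKM, against 45.2%; nothing is read from that gap, since the rule asks for a 2-fold lower library in each line. They made up 0.143% of expressed contigs with a mean of 1 to 5 FPKM, 0.0923% of those from 5 to 20 FPKM and 0.0134% of those of 20 FPKM or more. A library was listed at 0 in 22 of the 82 contigs (26.8%), against 11.8% of expressed contigs. Nothing is read from this gap either, since the rule favours contigs with a low library in each line. The part of counting error in these low values was not tested.

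The 54 contigs higher at 24 h in LmHC had a median level of 3.71 FPKM in LmHC at 24 h and 0.505 FPKM in LmHC at 0 h, and of 0.81 FPKM in LmLC at 24 h and 4.00 FPKM in LmLC at 0 h. In 51 of the 54, LmHC at 24 h and LmLC at 0 h were both above the other two libraries, as in 2.53% of expressed contigs; the rule largely fixes this count. The highest library was LmHC at 24 h in 28 of them and LmLC at 0 h in 26. The 28 contigs of the reverse direction had medians of 0.68 FPKM in LmHC at 24 h and 3.09 FPKM in LmHC at 0 h, and of 3.34 FPKM in LmLC at 24 h and 0.635 FPKM in LmLC at 0 h. In 23 of the 28, LmHC at 0 h and LmLC at 24 h were both above the other two (3.68% of expressed contigs), and the rule largely fixes this count too.

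**Figure D2:**
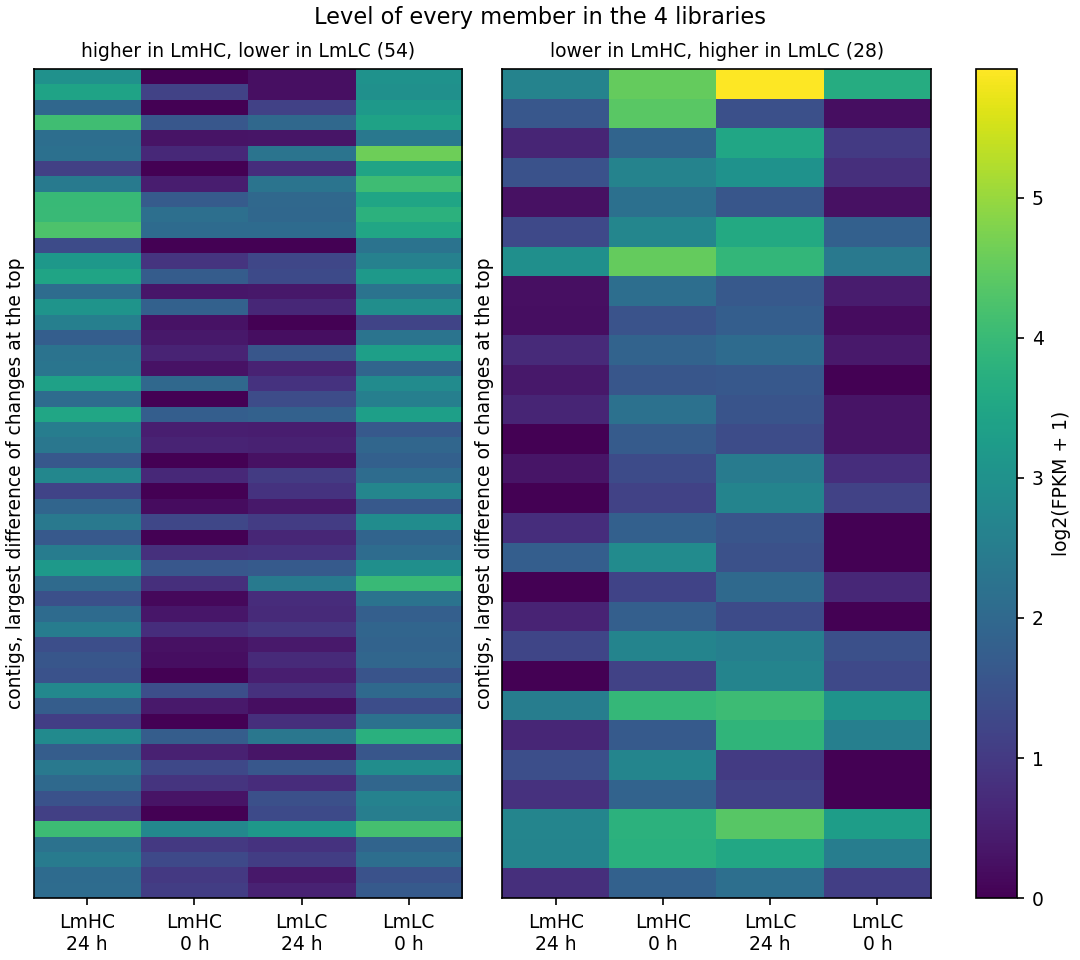
Level of each of the 82 contigs as log2(FPKM + 1), 1 row per contig and 1 column per library, with the 54 contigs higher in LmHC on the left and the 28 higher in LmLC on the right. Rows run from the largest difference of log2 changes at the top; light columns are LmHC 24 h and LmLC 0 h on the left, and LmHC 0 h and LmLC 24 h on the right.

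The largest difference was that of CL6923.Contig1_All, with 6.94 FPKM in LmHC at 24 h and listed at 0 in LmHC at 0 h, and with 0.19 FPKM in LmLC at 24 h and 7.10 FPKM in LmLC at 0 h. It was high in LmHC at 24 h and in LmLC at 0 h and at or near 0 in the other two libraries. Next came Unigene19509_All, with 9.88 FPKM in LmHC at 24 h and 1.25 FPKM in LmHC at 0 h, and with 0.19 FPKM in LmLC at 24 h and 6.86 FPKM in LmLC at 0 h. Its log2 change was 2.27 in LmHC and -2.72 in LmLC. These were the 2 contigs past 4-fold in both lines.

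In the reverse direction, CL9105.Contig2_All had 5.23 FPKM in LmHC at 24 h and 21.80 FPKM in LmHC at 0 h, and 59.43 FPKM in LmLC at 24 h and 11.68 FPKM in LmLC at 0 h. Its log2 change was -1.87 in LmHC and 2.25 in LmLC, and it had the highest mean of the 82 contigs. Unigene5633_All had 2.03 FPKM in LmHC at 24 h and 20.04 FPKM in LmHC at 0 h, and 1.71 FPKM in LmLC at 24 h and 0.17 FPKM in LmLC at 0 h. Here 1 library, LmHC at 0 h, stood far above the other 3, and the levels at 24 h were close.

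At the edge of the rule, the smaller of a contig's 2 log2 changes decides. Just inside lay Unigene4397_All, with 3.25 and 1.12 FPKM at 24 h and 0 h in LmHC and 0.47 and 2.19 FPKM in LmLC, a smaller log2 change of 1.00. Just outside lay CL5256.Contig2_All, with 23.85 and 2.24 FPKM at 24 h and 0 h in LmHC and 5.07 and 10.99 FPKM in LmLC, whose log2 change of -0.98 in LmLC missed the limit. For the other direction the contig just inside was CL7117.Contig7_All, at 4.68 and 14.48 FPKM in LmHC and 15.55 and 7.27 FPKM in LmLC, with a log2 change in LmLC of 1.001. The contig just outside was Unigene4375_All, at 1.31 and 5.17 FPKM in LmHC and 4.71 and 1.86 FPKM in LmLC, with 0.997.

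The question whether the lines differed at 0 h, at 24 h or both has an arithmetic frame. The difference of the lines' log2 changes equals the line ratio at 24 h minus that at 0 h, in log2, so each chosen contig must be at least 2-fold apart between the lines at 1 time or both. The lines were 2-fold apart at both times in 39 of the 82 contigs (47.6%), at 0 h alone in 25 (30.5%) and at 24 h alone in 18 (22.0%). Counting either class, 64 were apart at 0 h and 57 at 24 h, where 6.91% and 11.6% of expressed contigs were. Nothing is read from that gap, since the rule fixes most of it. The 39 contigs were apart in opposite directions at the 2 times, as 0.154% of expressed contigs were, and they made up 39 of those 109.

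**Figure D3:**
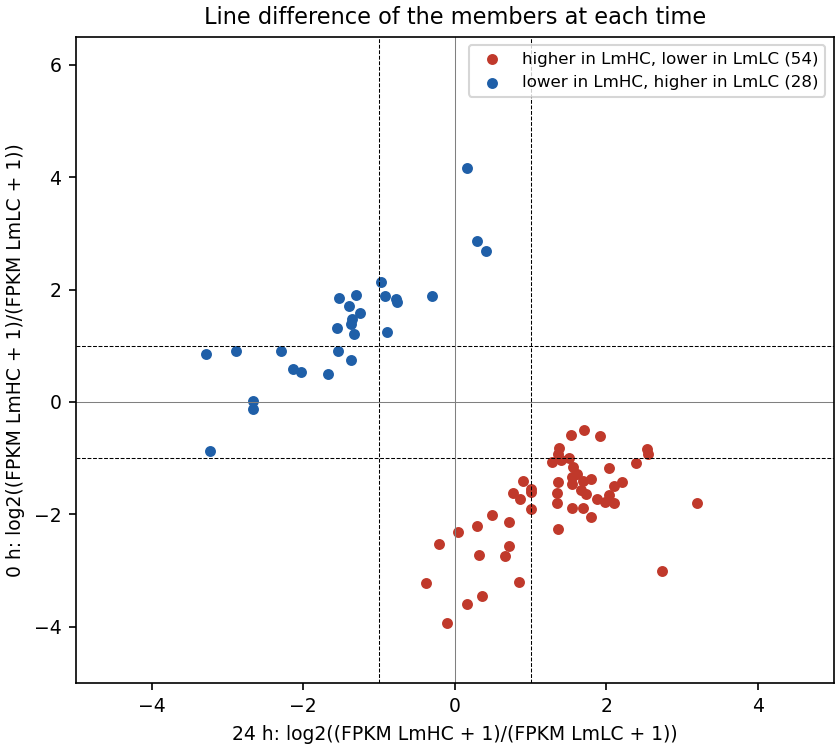
Log2 ratio of LmHC over LmLC, on FPKM + 1, at 24 h (horizontal) and at 0 h (vertical) for the 82 contigs, with dashed lines at 2-fold. Red points, the 54 contigs higher at 24 h in LmHC, all lie below 0 at 0 h and mostly to the right at 24 h; the blue points, the reverse direction, lie mostly at the upper left.

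By direction, the classes were as follows. Of the 54 contigs higher at 24 h in LmHC, 31 were apart at both times, 16 at 0 h alone and 7 at 24 h alone. Of the 28 contigs of the reverse direction, 8 were apart at both times, 9 at 0 h alone and 11 at 24 h alone. The difference between these splits was not tested.

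Contigs apart at both times exchanged places, by 2-fold or more at each time. In the 31 contigs of the first direction, the median level at 24 h was 4.26 FPKM in LmHC and 0.55 FPKM in LmLC, and at 0 h it was 0.50 FPKM in LmHC and 3.76 FPKM in LmLC. The low level was thus alike in the 2 lines, and so was the high level, at opposite times. An example is CL5256.Contig4_All, with 16.19 FPKM in LmHC and 2.99 FPKM in LmLC at 24 h, and 2.05 FPKM in LmHC and 9.65 FPKM in LmLC at 0 h. Its log2 ratio of LmHC over LmLC was 2.11 at 24 h and -1.80 at 0 h. The 8 contigs of the reverse direction had medians of 0.255 FPKM in LmHC and 2.27 FPKM in LmLC at 24 h, and of 3.08 FPKM in LmHC and 0.285 FPKM in LmLC at 0 h. Among them Unigene157_All had 1.83 FPKM in LmHC and 7.14 FPKM in LmLC at 24 h, and 5.27 FPKM in LmHC and 0.75 FPKM in LmLC at 0 h.

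Contigs apart at 0 h alone came to intermediate levels at 24 h. In the 16 contigs of the first direction, the median at 24 h was 3.05 FPKM in LmHC and 1.66 FPKM in LmLC, and at 0 h it was 0.205 FPKM in LmHC and 7.35 FPKM in LmLC. LmHC at 0 h was listed at 0 in 5388 of the 70886 expressed contigs and in 6 of these 16. Unigene35778_All was one of them, with 2.95 FPKM in LmHC and 1.2 FPKM in LmLC at 24 h, listed at 0 in LmHC at 0 h and at 8.19 FPKM in LmLC at 0 h. In the 9 contigs of the reverse direction the medians at 24 h were 1.69 FPKM in LmHC and 1.76 FPKM in LmLC, and the median at 0 h was 5.46 FPKM in LmHC. LmLC at 0 h was listed at 0 in 4053 of the 70886 expressed contigs and in 5 of these 9. Nothing is read from either count, since the rule and this class select a low library at 0 h. CL6527.Contig3_All, which was not at 0 in any library, had 6.71 FPKM in LmHC and 14.16 FPKM in LmLC at 24 h, and 22.07 FPKM in LmHC and 4.26 FPKM in LmLC at 0 h. Its log2 ratio of LmHC over LmLC was -0.98 at 24 h and 2.13 at 0 h, so it missed the class of both times narrowly.

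Contigs apart at 24 h alone had closer levels at 0 h than at 24 h. The same line was higher at both times in 0 of the 7 of the first direction and 2 of the 11 of the reverse. Among contigs apart at 0 h alone, this held for 3 of the 16 and 3 of the 9. A change of order was thus common to all classes, and the rule largely fixes it. In the 7 contigs of the first direction the median at 24 h was 4.50 FPKM in LmHC and 0.80 FPKM in LmLC, and at 0 h it was 1.12 FPKM in LmHC and 2.78 FPKM in LmLC. Unigene34434_All had 4.87 FPKM in LmHC and was listed at 0 in LmLC at 24 h, and had 0.22 FPKM in LmHC and 1.31 FPKM in LmLC at 0 h. In the 11 contigs of the reverse direction the medians were 0.56 FPKM in LmHC and 10.3 FPKM in LmLC at 24 h, and 2.58 FPKM in LmHC and 1.48 FPKM in LmLC at 0 h. CL11257.Contig2_All had 0.53 FPKM in LmHC and 10.29 FPKM in LmLC at 24 h, against 2.76 FPKM in LmHC and 1.00 FPKM in LmLC at 0 h. CL9105.Contig2_All, described above, also belongs here: its log2 ratio of LmHC over LmLC was -3.28 at 24 h and 0.85 at 0 h.

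Some of the chosen contigs belong together. Of the 82, 49 carried a cluster name, in 45 clusters, and 33 stood alone; the clustered share of 59.8% compares with 60.7% of expressed contigs. The clusters CL5256 and CL2671 each held 3 of the chosen contigs, and no cluster held contigs of both directions. These clusters and the run of numbers described next were singled out after their values were seen, and contigs of 1 cluster are not independent, because shared fragments are divided among them.

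In CL5256, with 7 contigs, the 3 chosen contigs spanned 4.09 to 16.19 FPKM in LmHC at 24 h and 0.50 to 2.05 FPKM in LmHC at 0 h, and 0.46 to 2.99 FPKM in LmLC at 24 h and 2.88 to 9.65 FPKM in LmLC at 0 h. Of the other 4 contigs, 3 also moved up in LmHC and down in LmLC at any size. Only CL5256.Contig2_All, the contig just outside the rule, was among the expressed contigs. The remaining ones, CL5256.Contig5_All and CL5256.Contig7_All, stayed under 1 FPKM in every library, so little is read from their direction. The whole cluster summed to 53.26 FPKM in LmHC at 24 h and 5.63 FPKM in LmHC at 0 h, and to 10.12 FPKM in LmLC at 24 h and 29.59 FPKM in LmLC at 0 h. The sum thus kept the opposite change, with log2 changes of 3.03 in LmHC and -1.46 in LmLC. The chosen contigs held 52.9% of it in LmHC at 24 h and 60.2% in LmHC at 0 h. In LmLC they held 48.0% at 24 h and 59.5% at 0 h, so the rule fixes part of the change of the sum.

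In CL2671, with 12 contigs, the 3 chosen contigs spanned 8.24 to 18.32 FPKM in LmHC at 24 h and 2.06 to 3.18 FPKM in LmHC at 0 h, and 2.17 to 3.18 FPKM in LmLC at 24 h and 6.73 to 10.25 FPKM in LmLC at 0 h. Of the other 9 contigs, 4 of them expressed, 2 moved up in LmHC and down in LmLC at any size and 7 did not. Of those 2, CL2671.Contig3_All had a mean under 1 FPKM. The chosen contigs held 66.7% of the cluster's FPKM in LmHC at 24 h and 38.0% in LmHC at 0 h, and 38.1% in LmLC at 24 h and 71.7% in LmLC at 0 h. The cluster's sum had log2 changes of 1.42 in LmHC and -0.78 in LmLC, so it fell short of 2-fold in LmLC.

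A further 5 of the 33 stand-alone contigs had consecutive numbers, from Unigene17570_All to Unigene17574_All, and the 4 pairs of neighbours among them were all the adjacent pairs among the 33. They spanned 4.60 to 15.04 FPKM in LmHC at 24 h and 0.40 to 3.45 FPKM in LmHC at 0 h, and 0.39 to 3.02 FPKM in LmLC at 24 h and 2.16 to 13.00 FPKM in LmLC at 0 h. All 5 were apart between the lines at both times. The contigs on either side did not share the pattern: Unigene17569_All had 8.16 and 10.08 FPKM at 24 h and 0 h in LmHC and 9.27 and 7.41 FPKM in LmLC, and Unigene17575_All had 4.02 and 4.51 FPKM in LmHC and 3.45 and 4.33 FPKM in LmLC. What consecutive numbers mean in this assembly is not given in the sources used here.

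**Figure D4:**
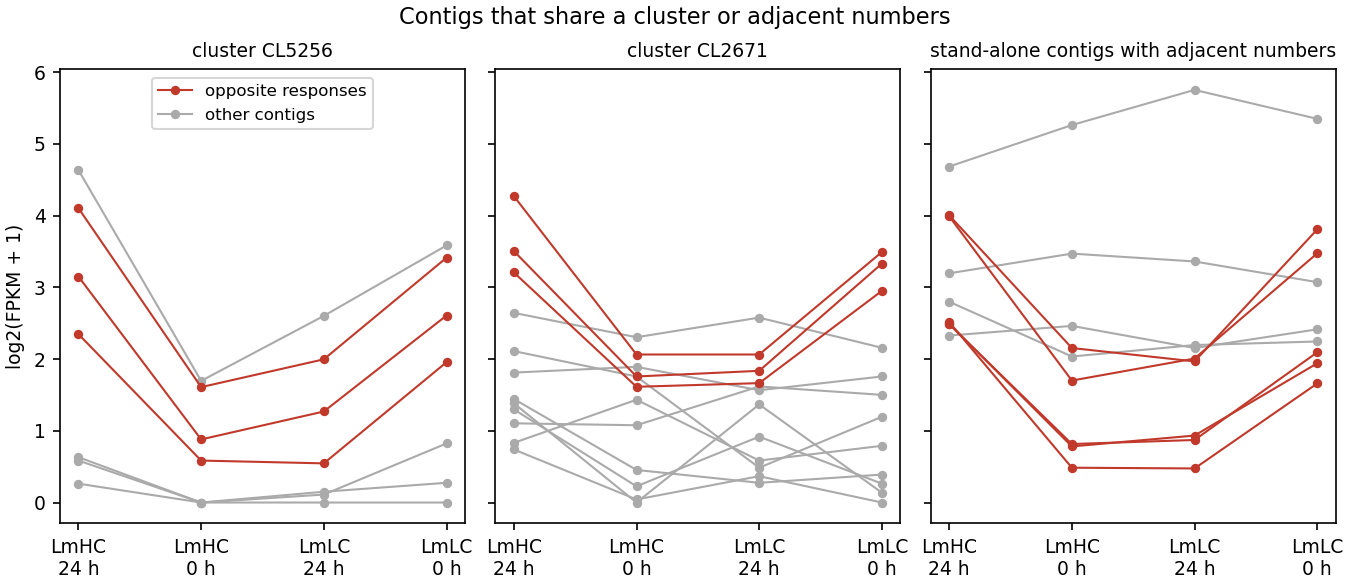
Level as log2(FPKM + 1) in the 4 libraries for the contigs of clusters CL5256 and CL2671 and for Unigene17568_All to Unigene17576_All, 1 line per contig; lines join the values of a contig and imply no order. Red contigs, with opposite responses, are high in LmHC at 24 h and in LmLC at 0 h; in CL5256 the highest grey contig, CL5256.Contig2_All, follows the same course.

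Cluster partners were examined for changes that offset those of a chosen contig. For each of the 49 clustered contigs, the FPKM of the other contigs of its cluster were summed in each library, without weighting for length, and an offset was counted where this sum moved against the contig by at least 50% of its change in FPKM. That held in both lines for 1 of the 49 contigs, and movement against the contig at any size in both lines held for 2. Among 17727 other clustered contigs that changed 2-fold in the same direction in both lines, 5.36% were offset by at least 50% in both lines and 7.1% met movement against them. That set is no close match, since partners there need only move 1 way to offset both changes, and nothing particular to the chosen contigs is read from these small counts. In 33 of the 49 (67.3%) the partners moved the same way in both lines, against 89.5% of 42884 other clustered expressed contigs. For the 6 contigs of CL5256 and CL2671 the partners include other chosen contigs, and they moved in opposite directions in the 2 lines. The rule thus fixes part of this gap. Partners that move the same way in both lines must run against a contig of opposite changes in 1 of them. In 28 of the 49 the partners offset at least 50% of the contig's change in exactly 1 line. This held for 2.54% of the 17727 same-direction contigs, where same-way partners run against both changes or neither. The chosen contigs held a median of 8.89% of their cluster's FPKM, so partners easily pass 50% of their change. Nothing particular to the chosen contigs is read from the 28.

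Ranked by the smaller of the 2 lines' offset shares, the contig with the largest offset was CL1466.Contig21_All, with 1.14 FPKM in LmHC at 24 h and listed at 0 in LmHC at 0 h, and with 0.74 FPKM in LmLC at 24 h and 3.61 FPKM in LmLC at 0 h. The other contigs of its cluster of 21 together had 121.10 FPKM in LmHC at 24 h and 145.61 FPKM in LmHC at 0 h, and 153.92 FPKM in LmLC at 24 h and 145.83 FPKM in LmLC at 0 h. The partners' changes, of -24.51 FPKM in LmHC and 8.09 FPKM in LmLC, were several times those of the contig itself, which is a small share of its cluster. In the reverse direction no contig was offset in both lines.

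The summed cluster kept a 2-fold change in both directions for 9 of the 49 contigs, in 7 of the 45 clusters. For the 17727 same-direction contigs, the sum kept both changes in 78.0%. That set is no close match here either, since partners moved the same way in both lines for 94.6% of it. A sum led by such partners can keep same-direction changes but not opposite ones, so nothing is read from that gap. By direction, the sum kept the opposite change for 4 of 34 contigs higher in LmHC, 3 of them in CL5256, and for 5 of 15 contigs of the reverse direction. The chosen contig held a median of 8.81% of its cluster's FPKM in the 34 and 45.4% in the 15. Since the sum includes the chosen contig, nothing is read from this contrast. In 17 of the 49 the sum stayed within 2-fold in both lines, in 5 it was at least 2-fold lower and in 2 at least 2-fold higher in both lines, and in 16 it passed 2-fold in 1 line. A contig made up a median of 8.89% of its cluster's FPKM over the 4 libraries, from 0.884% to 99.5%, and over 50% in 10 of the 49.

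Of the 10 contigs that made up over 50% of their cluster, the sum kept the opposite change for 6. Of the other 39 it did so for 3, all in CL5256, where the chosen contigs jointly held a large part of the sum. Since the sum includes the chosen contig, the rule fixes much of this gap, and nothing is read from it. In CL9105 the chosen CL9105.Contig2_All had a single partner, CL9105.Contig1_All, with 0.11 FPKM in LmHC at 24 h and 1.18 FPKM in LmHC at 0 h, and 1.90 FPKM in LmLC at 24 h and 0.25 FPKM in LmLC at 0 h. The partner moved the same way as the contig in both lines, with a mean under 1 FPKM. The sum of CL9105, made up almost wholly of the chosen contig, had log2 changes of -1.92 in LmHC and 2.27 in LmLC.

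In CL6923 the partners held most of the FPKM and the sum did not keep the opposite change. The 2 partners of CL6923.Contig1_All together had 214.90 FPKM in LmHC at 24 h and 257.43 FPKM in LmHC at 0 h, and 96.01 FPKM in LmLC at 24 h and 290.57 FPKM in LmLC at 0 h. They were lower at 24 h in both lines, and more so in LmLC. The larger of them, CL6923.Contig3_All, had log2 changes of -0.28 in LmHC and -1.50 in LmLC.

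Partners were also compared between the lines. Of 40 clustered contigs apart between the lines at 0 h, 34 (85.0%) had partners whose sum was within 2-fold between the lines at 0 h, against 89.3% of 2513 other clustered contigs apart at 0 h. Of 31 apart at 24 h, 18 (58.1%) had partners within 2-fold at 24 h, against 87.7% of 4375 others. The 3 chosen contigs of CL5256 and the 3 of CL2671 enter these counts singly although they share partners. Their partner sums also include other contigs chosen by the rule, and were over 2-fold apart at 24 h. The rule thus fixes part of the gap at 24 h, which was not tested.

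**Figure D5:**
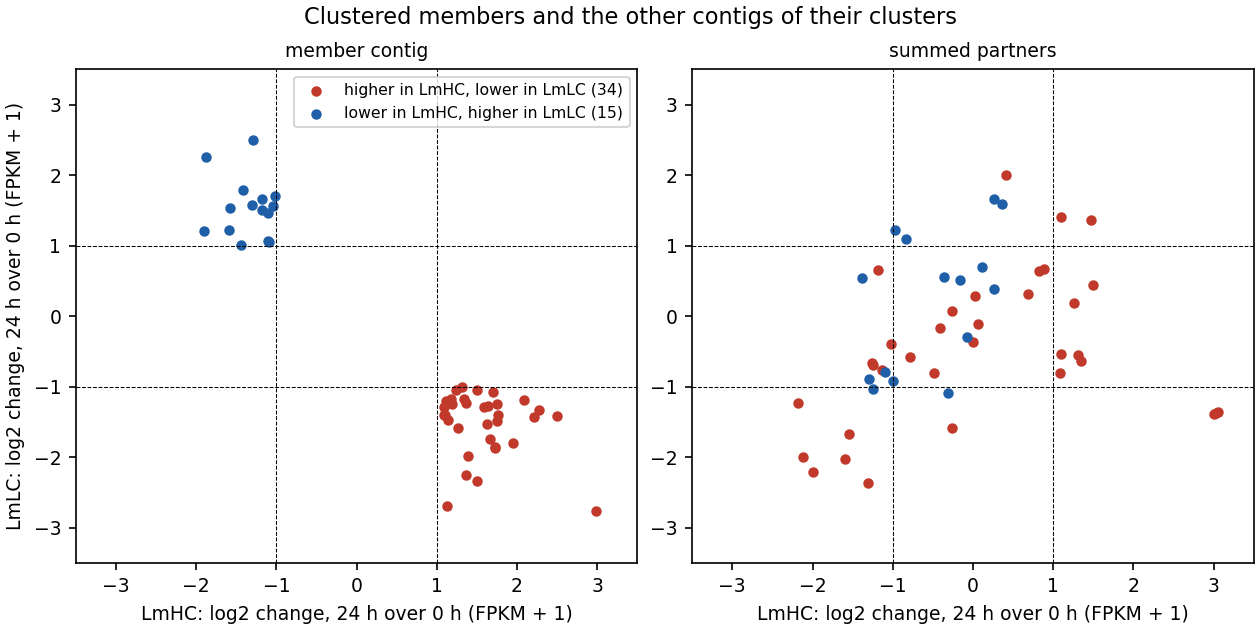
Log2 change after 24 h, on FPKM + 1, in LmHC (horizontal) and LmLC (vertical) for the 49 clustered contigs (left) and for the sum of the other contigs of each one's cluster (right), red for the 34 higher in LmHC and blue for the 15 of the reverse direction, with dashed lines at 2-fold. The partners spread along the rising diagonal. The 3 red points past 2-fold in the contig's own opposite directions are all of CL5256, where the partner sums include other chosen contigs.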

How the data were processed

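RNA from 4 samples was captured with oligo(dT) beads and sequenced, per the labels' protocols. The deposited values are FPKM, given to 2 decimals; Bowtie2 2.2.5 and RSEM 1.2.8 are named in the submitters' processing notes. The sources used here do not name the assembler, contig lengths or filters. RSEM divides fragments that fit several contigs, so cluster mates depend on each other.

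Computed here: log2 ratios of FPKM + 1, the rule of choice, line ratios at each time, and partner sums per cluster, with Python 3.11.15, numpy 2.4.6 and pandas 2.3.3. The rule was run on contigs simulated at an assumed depth. Opposite changes of 4-fold or more were planted in contigs with 0 h means of 5 FPKM or more. Most of the chosen contigs had a mean under 5 FPKM and changes under 4-fold, so nothing about them is read from that run. Relative depth is the most frequent log2 ratio (within 0.02) of stand-alone contigs at 0.3 to 1.2 FPKM in both libraries, searched from -0.5 to 0.5. The contigs and comparisons were chosen with earlier results of these data known. Named contigs are, per direction, the 2 largest differences of log2 changes, the largest further one per class of line difference, the largest offset and largest kept sum, and those nearest the limit. Gene lists could not be applied.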

Additional observations from a re-analysis of the deposited data

Results flagged for a closer look

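All results here are drawn out because the single pair of libraries of one line moved one way and that of the other line the opposite way; the difference between the lines was not tested. The sets hold 54 contigs higher at 24 h in LmHC and lower in LmLC, and 28 contigs of the reverse direction. Among the named contigs without a library at 0, the log2 change in LmHC minus that in LmLC was 5.00 for Unigene19509_All, 3.91 for CL5256.Contig4_All and 2.12 for Unigene4397_All. Of the reverse direction, it was -4.12 for CL9105.Contig2_All, -4.01 for Unigene5633_All, -3.79 for CL11257.Contig2_All, -3.37 for Unigene157_All, -3.11 for CL6527.Contig3_All and -2.45 for CL7117.Contig7_All. Where a library is listed at 0 the highest level is given instead: 7.10 FPKM for CL6923.Contig1_All, 8.19 FPKM for Unigene35778_All, 4.87 FPKM for Unigene34434_All and 3.61 FPKM for CL1466.Contig21_All. These contigs were chosen for this pattern.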

How the results depend on the processing

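All alternatives were listed before these counts were made, but with earlier results of the same data known. Numbers of opposite contigs are given as higher in LmHC, then higher in LmLC. At pseudocount 0.1 they were 263 and 287, and at pseudocount 5 they were 4 and 2. A minimum mean of 5 FPKM gave 11 and 8. The numbers were 268 and 285 at 1.5-fold, and 2 and 0 at 4-fold in each line. Without a filter they were 65 and 34, and with equal column totals 54 and 27. Contigs apart at 0 h alone, at 24 h alone and at both times numbered 137, 123 and 290 at pseudocount 0.1, and 1, 3 and 2 at pseudocount 5. With a limit of 1.5-fold for the line difference they numbered 13, 5 and 64, and at 4-fold 1 contig was apart at both times. The sum of the cluster kept the opposite change for 28 contigs at pseudocount 0.1 and 1 at pseudocount 5. Partners offset at least 50% in both lines for 6 contigs at pseudocount 0.1, for 0 at pseudocount 5 and for 0 with median-of-ratios scaling, and for 2 when any opposite change counted. A pseudocount of 5 or a higher limit leaves fewer contigs by construction; beyond that the cause was not tested. Of 60 alternative values for the named contigs, 45 stayed on their side of the rule, 12 dropped out of it, 3 entered it and 0 changed sign. No paired analysis was possible because each group had 1 library. Unknown absolute depth limits every value of a few FPKM.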

Other observations

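Of the 82 contigs, 6 met the rule at pseudocounts of 0.1, 1 and 5 and under each scaling tried. A pseudocount of 5 alone left the same 6, so the other settings add little. These 6 were picked out after their values were seen, and 4 of them were described above. The other two, both of the direction higher in LmHC, were Unigene17571_All and CL11096.Contig1_All. Unigene17571_All had 15.04 FPKM in LmHC at 24 h and 3.45 FPKM in LmHC at 0 h, and 2.91 FPKM in LmLC at 24 h and 13.00 FPKM in LmLC at 0 h. CL11096.Contig1_All had 9.89 FPKM in LmHC at 24 h and 2.30 FPKM in LmHC at 0 h, and 1.53 FPKM in LmLC at 24 h and 8.26 FPKM in LmLC at 0 h. In both, the levels of LmHC at 24 h and LmLC at 0 h lay close together, and so did the 2 low levels. The single partner of CL11096.Contig1_All had 1.08 FPKM in LmHC at 24 h and 8.43 FPKM in LmHC at 0 h. It had 1.51 FPKM in LmLC at 24 h and 4.92 FPKM in LmLC at 0 h. The sum of CL11096 had log2 changes of 0.03 in LmHC and -1.81 in LmLC, so it did not keep the opposite change. Nor did the sum of CL6923, while those of CL9105 and CL6527 kept it. The 4 described above are CL6923.Contig1_All, Unigene19509_All, CL9105.Contig2_All and CL6527.Contig3_All.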
